A study of Mus musculus with 20 samples.

Results

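Transcripts of 10 carriers of bile acids and other organic anions (Slc10a1, Slco1b2, Slco1a1, Slco1a4, Slco2b1, Slc22a7, Slco2a1, Slc10a2, Slc51b and Slc51a) were followed in mouse liver. They were taken by gene symbol from a table of 38924 genes, and each symbol matched 1 gene. The livers came from 20 male mice in 4 groups of 5: WT C57BL/6J mice on control chow (NDWT), TSP-1 null mice on control chow (NDKO), WT mice on CDAHFD (HFWT) and TSP-1 null mice on CDAHFD (HFKO), called null mice below. CDAHFD is a high fat diet without choline in which protein is replaced by amino acids, and it is used to produce steatohepatitis with fibrosis. Mice were bought at 5 weeks of age, acclimated for 1 week and kept on their diet for 12 weeks. TSP-1 (thrombospondin-1, gene Thbs1) was absent by label from every cell of the null mice, because the knockout is carried in the germline, so no result belongs to the loss of the gene in 1 cell type. The piece of liver sequenced is the right medial lobe in the series description and the right lateral lobe in the study's methods.

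Bile acids are made from cholesterol in hepatocytes, pumped into bile, taken back in the ileum and returned to the liver in portal blood. At the sinusoidal face of the hepatocyte the sodium-dependent carrier NTCP (Slc10a1) takes up conjugated bile acids, and the sodium-independent OATP carriers (Slco genes) and OAT2 (Slc22a7) take up unconjugated bile acids, bilirubin, steroid conjugates, drugs and other anions. ASBT (Slc10a2) is the uptake carrier of ileum and bile duct cells, and OSTα-OSTβ (Slc51a and Slc51b) is a dimer that lets bile acids out across the basolateral membrane and needs both subunits.

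Libraries held 15641545 to 23276322 fragments assigned to genes. Values are FPKM, fragments scaled to the length of the gene and to the library total, so levels can be compared between genes, while a comparison between libraries depends on how the libraries are scaled. Thbs1, the check of the labels, had 0.058 to 0.326 FPKM (NDWT), 0.986 to 1.90 (NDKO), 3.46 to 6.10 (HFWT) and 3.05 to 4.40 (HFKO). On control chow each of the 5 null libraries was thus above each of the WT libraries (log2FC 2.28 ± 0.24 (SE), FDR = 1.02e-05), against what the label implies. The table has 1 value per gene, and reads of a disrupted transcript cannot be told from those of an intact one, so genotype is given below as labelled. The 20 hepatocyte markers were detected in every library, with summed FPKM of 67793 to 72254 (NDWT), 75067 to 78307 (NDKO), 49320 to 66309 (HFWT) and 60572 to 74826 (HFKO). In whole liver, fewer cells of a type and less RNA per cell cannot be told apart.

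The promoters of the carriers that passed the test in a diet comparison are shown first, since these are the genes whose transcripts moved. RefSeq (GRCm38.p6) entries existed for 9 of the 10 members, and Slc22a7 had none. Each line holds the 250 bases before the transcription start, 5′ to 3′ on the strand of the gene, and capitals mark every match to a searched motif.
Slc10a1 (chr12:80968080-80968329, minus strand): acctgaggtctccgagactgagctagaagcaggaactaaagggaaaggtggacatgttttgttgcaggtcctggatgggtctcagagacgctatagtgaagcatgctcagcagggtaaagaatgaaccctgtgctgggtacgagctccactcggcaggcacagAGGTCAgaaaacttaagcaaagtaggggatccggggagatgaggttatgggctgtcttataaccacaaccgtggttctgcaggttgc
Slco1a1 (chr6:141946963-141947212, minus strand): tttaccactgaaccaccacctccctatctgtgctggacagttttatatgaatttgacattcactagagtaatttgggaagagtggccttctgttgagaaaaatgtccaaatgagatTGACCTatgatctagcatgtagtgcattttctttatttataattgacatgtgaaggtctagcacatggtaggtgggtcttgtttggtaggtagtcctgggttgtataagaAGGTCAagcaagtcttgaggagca
Slco1a4 (chr6:141856221-141856470, minus strand): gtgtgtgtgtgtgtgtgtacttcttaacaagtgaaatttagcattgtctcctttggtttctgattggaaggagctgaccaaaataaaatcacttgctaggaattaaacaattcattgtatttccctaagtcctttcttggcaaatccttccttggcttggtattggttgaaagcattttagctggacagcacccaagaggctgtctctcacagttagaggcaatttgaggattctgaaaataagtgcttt
Slc10a2 (chr8:5105288-5105537, minus strand): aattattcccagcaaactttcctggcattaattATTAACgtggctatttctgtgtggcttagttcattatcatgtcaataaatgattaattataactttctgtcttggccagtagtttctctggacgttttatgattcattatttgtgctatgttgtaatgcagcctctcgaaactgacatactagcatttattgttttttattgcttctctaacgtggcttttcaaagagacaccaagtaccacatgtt
Slc51b (chr9:65422774-65423023, minus strand): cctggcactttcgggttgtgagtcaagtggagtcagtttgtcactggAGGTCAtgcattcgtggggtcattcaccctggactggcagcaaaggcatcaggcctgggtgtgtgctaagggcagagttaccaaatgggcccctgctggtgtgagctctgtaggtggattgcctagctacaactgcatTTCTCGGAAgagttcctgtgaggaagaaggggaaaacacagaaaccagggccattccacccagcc
The motifs were searched on both strands: the hexamer of nuclear receptors (AGGTCA), the hexamer of HNF1 (GTTAAT), the STAT5 site (TTCNNNGAA), the NRF2 site (TGACNNNGC), the HNF4 site (CAAAGTCCA), the HNF1 palindrome (GTTAATNATTAAC), a direct repeat (AGGTCANAGGTCA) and the inverted repeat of FXR (AGGTCANTGACCT). The hexamer of nuclear receptors is contained in both repeats, and that of HNF1 in its palindrome. Slc10a1 held an AGGTCA starting 87 bases before the start site. Slco1a1 held this hexamer at 24 and, on the reverse strand, at 134 bases. Slc51b held it at 203 bases, with a STAT5 match at 65 bases. Slc10a2 held an HNF1 hexamer on the reverse strand at 217 bases, and Slco1a4 held no match. Such matches are common: of 32851 RefSeq promoters, 14.0% held the nuclear receptor hexamer, 7.02% the STAT5 site and 6.43% the HNF1 hexamer. The FXR inverted repeat was in 0.00609% of all promoters and in none of these 5. Another RefSeq start site of Slc10a1 lies 626 bases further upstream and is not shown.

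Slco1b2, Slco1a4 and Slco1a1 are neighbours on chromosome 6 (GRCm38). Slco1b2 spans 141629518 to 141686646 on the plus strand, Slco1a4 spans 141805440 to 141856199 on the minus strand, and Slco1a1 spans 141907282 to 141946962 on the minus strand. Slco1a1 and Slco1a4 are close relatives. Of the 31-base words in Slco1a1 transcripts 4.02% also occur in another gene, and of those in Slco1a4 transcripts 5.03%. Slco1a1 shared most with Slco1a4 (134 of its 213 shared words), and Slco1a4 shared most with Slco1a5 (218 of 322). A small part of their reads could thus be assigned to another gene. Slc10a1 lies on chromosome 12 (80953185 to 80968079), Slc22a7 on chromosome 17 (46432185 to 46438477), Slco2b1 on chromosome 7 (99657804 to 99711340), Slc10a2 on chromosome 8 (5085623 to 5105232), Slc51a on chromosome 16 (32475522 to 32487879), and Slco2a1 (103008489 to 103087849) and Slc51b (65412753 to 65422773) on chromosome 9. Exons of Slc51b and Slc51a overlap those of Rasl12 and Pcyt1a on the opposite strand, those of Slco2b1 overlap Gm15635 and Gm34280, and those of Slco2a1 overlap n-R5s89. The study's methods name a directional library kit. Whether reads were counted by strand is not given in the sources used here, so reads in these overlaps are of uncertain origin.

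**Figure D1:**
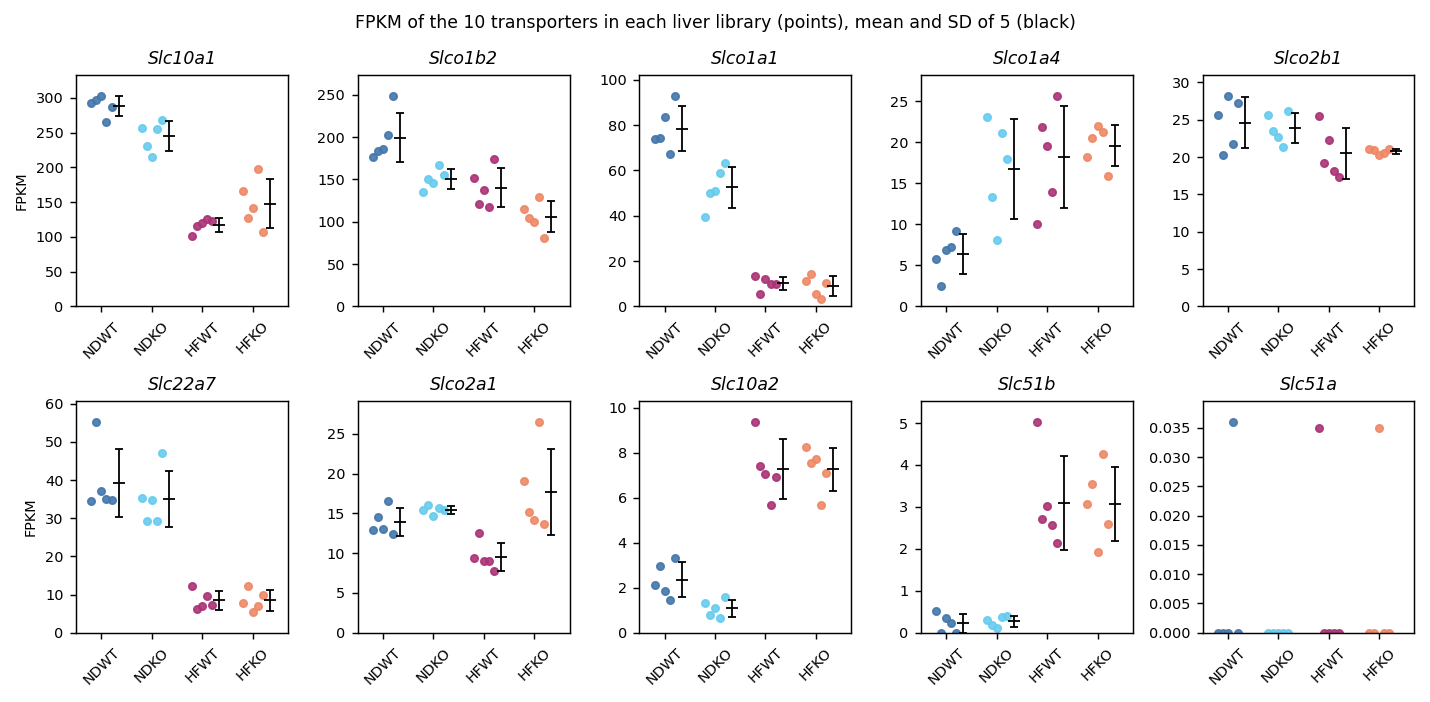
FPKM (y axis, linear, a separate scale for each gene) of the 10 carriers in the 4 groups (x axis). Each colored point is 1 library, and the black bar is the mean with its SD over 5 libraries (not drawn for Slc51a). Slc10a1, Slco1a1 and Slc22a7 are lower in every CDAHFD library than in any control chow library of either genotype, and Slc10a2 and Slc51b are higher.

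The first comparison asks what CDAHFD did to the carriers in WT liver. Of the 9 members that could be tested, 3 were higher on CDAHFD (Slc10a2, Slco1a4 and Slc51b) and 3 were lower (Slc10a1, Slco1a1 and Slc22a7) at an FDR under 0.05 and an absolute log2FC above 0.58. Slc51b passed the filter on low values only through its CDAHFD libraries. Its place among the higher and the non-overlapping members, here and in null mice, is therefore no independent support. Among all 14524 genes tested, 48.8% were called, 44.1% as higher and 4.62% as lower, so higher calls were common and lower calls were not. The median log2FC of all genes was 0.53 in WT and 0.50 in null mice, while that of the tested members was -0.51 and -0.19. The groups did not overlap for 7 of the 9 members, against 56.2% of all tested genes. With median of ratios scaling, which moves the centre of all genes to near 0, 9 members were called (3 higher, 6 lower), and the split over all genes moved from 6412 higher and 671 lower to 3299 and 2242. In null mice 2 of the 9 were higher (Slc10a2 and Slc51b) and 3 were lower (Slc10a1, Slco1a1 and Slc22a7), where 45.9% of all genes were called, 41.9% as higher and 4% as lower. Here too 7 members did not overlap between the diets, against 57.8% of all genes, and with median of ratios scaling 2 members were higher and 5 lower. That scaling moved the split over all genes in null mice from 6088 higher and 581 lower to 3225 and 1980.

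**Figure D2:**
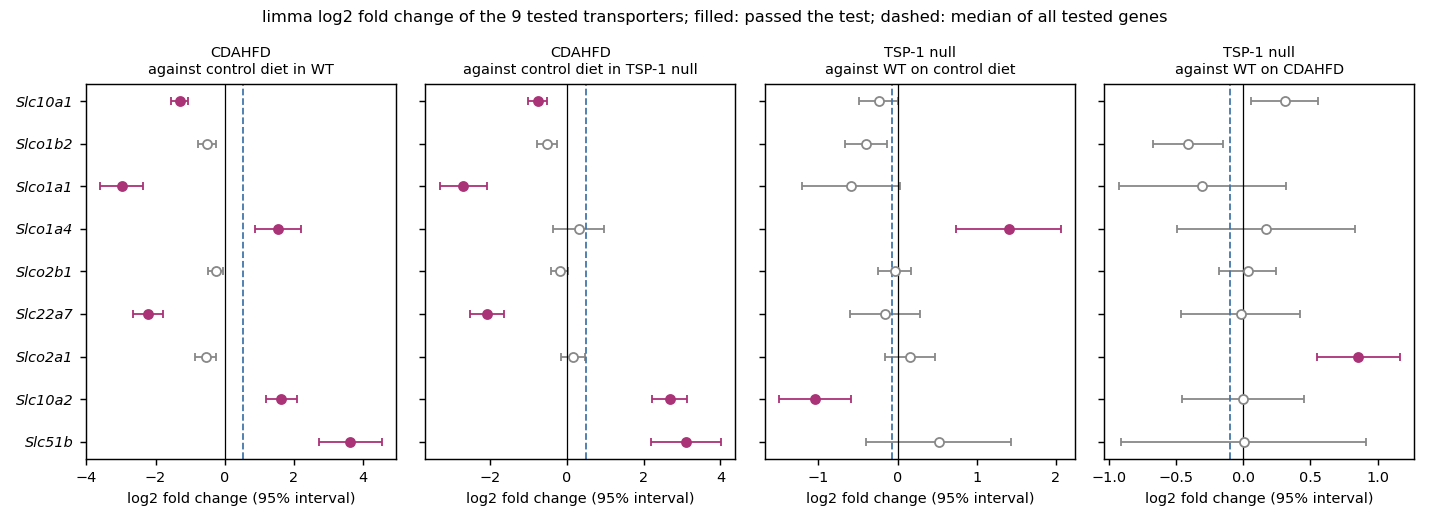
log2 fold change (x axis, a separate scale for each panel) with its 95% interval for the 9 tested carriers (y axis) in the 4 comparisons. Filled points passed the test and open points did not, and the dashed line is the median of all 14524 tested genes. In both diet panels the points of Slco1a1 and Slc22a7 lie farthest to the left and that of Slc51b farthest to the right.

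Slc10a1, the sodium-dependent carrier of conjugated bile acids, was the most abundant of the 10 transcripts in both control chow groups and in HFKO, and ranked 197 of all genes in NDWT. It had 293, 297, 302, 265 and 286 FPKM in the 5 NDWT libraries and 257, 231, 216, 256 and 268 in NDKO. On CDAHFD it had 102, 115, 120, 126 and 123 FPKM in HFWT and 166, 128, 141, 198 and 107 in HFKO. Both CDAHFD groups lay below both control chow groups without overlap, whereas the genotypes overlapped on each diet. Slc10a1 fell by 1.30 on the log2 scale in WT mice (95% interval -1.55 to -1.05, FDR = 1.03e-08), to 0.406 of its control chow level. In null mice it fell by 0.76 (-1.01 to -0.51, FDR = 1.27e-05), to 0.592 of its level, and with scaling to hepatocyte markers this change (-0.29, FDR = 0.0267) no longer passed the fold threshold. The difference between the genotypes in this response was 0.54 ± 0.17 (SE, FDR = 0.125). It passed only without HFKO5 (0.65, FDR = 0.0393).

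Slco1a1 (OATP1A1), known as a carrier with higher expression in male than in female mouse liver, changed more than any other lower member. It had 73.8, 74.4, 83.7, 67.4 and 93.0 FPKM in NDWT and 39.6, 49.8, 50.9, 59.0 and 63.1 in NDKO. On CDAHFD it had 13.5, 5.56, 12.0, 9.95 and 9.94 FPKM in HFWT and 11.3, 14.2, 5.54, 3.32 and 10.3 in HFKO. Even the highest CDAHFD library was well under the lowest control chow library, and on control chow every library labelled null was under every WT library. Slco1a1 fell by 2.98 (-3.61 to -2.36, FDR = 3.55e-08) in WT mice and by 2.70 (-3.32 to -2.07, FDR = 1.54e-07) in null mice, to 0.127 and 0.154 of the control chow level. Its rank among all genes went from 686 in NDWT to 4659 in HFWT. Although the control chow genotypes did not overlap, their difference (-0.59 ± 0.30 (SE), FDR = 0.211) did not pass in the fit over all 4 groups. In a fit of NDWT and NDKO alone it did (FDR = 0.0240).

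Slc22a7 (OAT2), a carrier of organic anions such as prostaglandins and nucleotides, fell in both genotypes. Its 5 libraries had 34.6, 55.3, 37.0, 35.0 and 34.7 FPKM in NDWT and 35.3, 29.2, 34.9, 29.3 and 47.2 in NDKO. They had 12.2, 6.32, 7.005, 9.74 and 7.24 in HFWT and 7.81, 12.3, 5.37, 6.93 and 9.91 in HFKO. Diets did not overlap in either genotype, and the genotypes overlapped on either diet. The log2FC was -2.21 (-2.66 to -1.77, FDR = 1.87e-08) in WT mice and -2.08 (-2.52 to -1.63, FDR = 5.16e-08) in null mice. The changes of Slco1a1 and Slc22a7 passed in both genotypes under every alternative tried.

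Slco1b2 (OATP1B2), the liver carrier of unconjugated bile acids, bilirubin and many drugs, was the most abundant OATP transcript in every group and the most abundant member in HFWT. It had 176, 183, 186, 203 and 248.9 FPKM in NDWT and 135, 151, 145, 167 and 155 in NDKO. It had 152, 121, 137, 118 and 174 FPKM in HFWT and 114, 105, 99.5, 129 and 80.4 in HFKO. Each step from NDWT to NDKO, from NDWT to HFWT and from NDKO to HFKO was free of overlap, while HFWT overlapped NDKO and HFKO. The log2FC with diet was -0.51 ± 0.12 (SE, FDR = 0.00114) in WT and -0.52 ± 0.12 (FDR = 0.000952) in null mice, both short of the fold threshold of 0.58. The WT value was -1.07 with median of ratios scaling, where it passed, and 0.06 (FDR = 0.712) with scaling to hepatocyte markers, where its sign turned. It also passed without HFWT5 (-0.59) and, in null mice, without HFKO4 (-0.60).

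Slco2b1 (OATP2B1), a carrier of steroid sulfates found in many tissues, varied least. Its range was 20.3 to 28.2 FPKM (NDWT), 21.4 to 26.2 (NDKO), 17.4 to 25.5 (HFWT) and 20.3 to 21.1 (HFKO). Its diet log2FC was -0.27 (-0.48 to -0.05, FDR = 0.0243) in WT and -0.19 (-0.41 to 0.02, FDR = 0.0932) in null mice, and neither passed. With median of ratios scaling Slco2b1 passed as lower in WT (-0.83, FDR = 1.47e-07) and in null mice (-0.73, FDR = 9.02e-07). The sign turned with scaling to hepatocyte markers, to 0.30 and 0.27. HFKO lay just under NDKO without overlap, while HFWT overlapped NDWT.

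Slco1a4 (OATP1A4), a carrier of bile acids and cardiac glycosides whose mouse liver level is known to be higher in females, went the opposite way to its neighbour Slco1a1. It had 5.82, 2.54, 6.90, 7.29 and 9.24 FPKM in NDWT, against 23.1, 13.3, 8.14, 21.1 and 17.9 in NDKO. On CDAHFD it had 10.1, 21.8, 19.6, 13.9 and 25.7 FPKM in HFWT and 18.2, 20.5, 22.0, 21.3 and 15.8 in HFKO. NDWT was the low group: it lay wholly under both CDAHFD groups and overlapped NDKO in 1 library (NDKO3), and the other groups overlapped each other. In WT mice Slco1a4 rose by 1.54 (0.88 to 2.20, FDR = 0.000218), 2.91-fold. In mice labelled null its diet log2FC was 0.31 (-0.35 to 0.97, FDR = 0.393), with a sign that turned under median of ratios scaling (-0.22) and quantile normalization (-0.06), while it passed as higher with scaling to hepatocyte markers (0.77, FDR = 0.0410). The difference between the responses of the genotypes was -1.23 ± 0.45 (SE, FDR = 0.187), so a smaller response in null mice was not established.

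The balance of the OATP transcripts therefore differed between the diets. The ratio of Slco1a4 to Slco1a1 within a library was 0.0341 to 0.108 (NDWT), 0.160 to 0.584 (NDKO), 0.744 to 3.92 (HFWT) and 1.44 to 6.42 (HFKO). Both control chow groups lay apart from each other and under both CDAHFD groups, which overlapped. Slco1a1 made up 25.5 ± 1.93% (SD, n = 5) of the summed FPKM of Slco1b2, Slco1a1, Slco1a4 and Slco2b1 in NDWT and 21.4 ± 2.34% in NDKO. Its share was 5.39 ± 1.47% in HFWT against 5.89 ± 2.96% in HFKO. The share of Slco1a4 was 2.02 ± 0.644% (NDWT), 6.85 ± 2.53% (NDKO), 9.67 ± 3.04% (HFWT) and 12.7 ± 1.41% (HFKO). Slco1b2 held 59.1 to 67.7% in the control chow libraries and 63.0 to 76.6% in the CDAHFD libraries. Summed over Slc10a1, Slc22a7 and these 4 OATP genes, the uptake carriers came to 637 ± 39.3 FPKM (NDWT), 524 ± 41.0 (NDKO), 315 ± 26.8 (HFWT) and 311 ± 50.9 (HFKO). A ratio or share within a library does not change when the library is scaled by 1 factor, but the sums do. Quantile normalization, which is not such a factor, can change both.

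**Figure D3:**
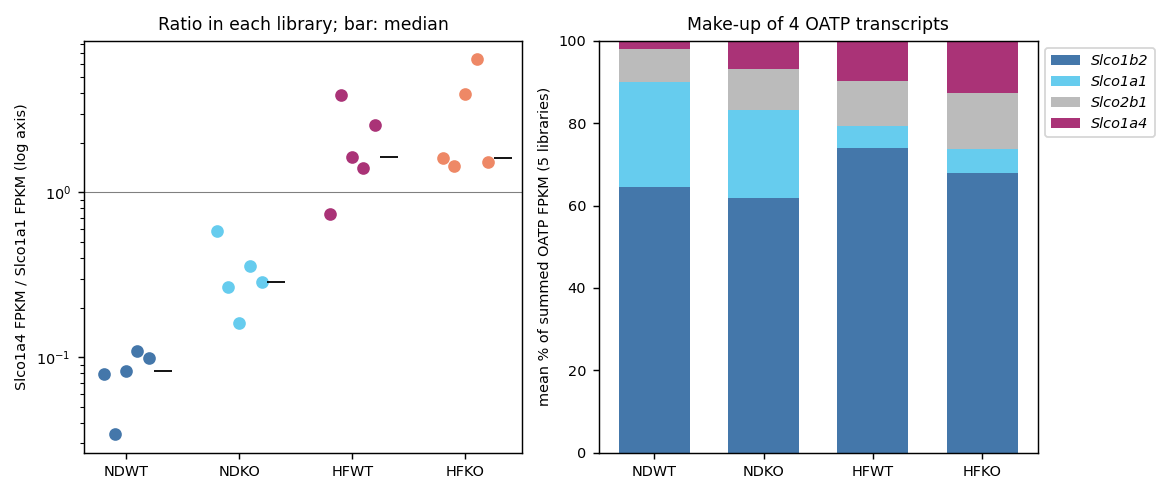
Left, the ratio of Slco1a4 to Slco1a1 FPKM (y axis, log scale) in each library of the 4 groups (x axis), with the median as a black bar. Right, the mean share over 5 libraries (y axis, percent) of each of 4 OATP transcripts in their summed FPKM. The ratio is at most 0.584 in the control chow libraries and at least 0.744 in the CDAHFD libraries, and the Slco1a1 share takes 25.5% of the NDWT bar and 5.39% of the HFWT bar.

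Slc10a2 (ASBT), the sodium-dependent carrier of ileum and bile duct cells, rose on CDAHFD from a low level. It had 2.11, 2.98, 1.86, 1.47 and 3.32 FPKM in NDWT and 1.31, 0.811, 1.08, 0.653 and 1.58 in NDKO. It had 9.38, 7.43, 7.06, 5.69 and 6.92 FPKM in HFWT and 8.26, 7.54, 7.71, 5.68 and 7.12 in HFKO. All CDAHFD libraries were above all control chow libraries, and the ranges of HFWT and HFKO overlapped. Slc10a2 rose by 1.64 (1.18 to 2.09, FDR = 1.49e-06) in WT mice, 3.11-fold, and by 2.68 (2.23 to 3.13, FDR = 2.37e-09) in null mice, 6.41-fold. The difference between these responses, 1.04 ± 0.31 (SE), did not pass (FDR = 0.106). Fragments behind it numbered 17 to 108 in a control chow library and 183 to 297 in a CDAHFD library.

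Slc51b (OSTβ), the small subunit of the basolateral exporter, had 0.528, 0, 0.345, 0.239 and 0 FPKM in NDWT and 0.298, 0.180, 0.110, 0.385 and 0.405 in NDKO. It had 5.03, 2.72, 3.03, 2.57 and 2.13 FPKM in HFWT and 3.06, 3.54, 1.94, 4.25 and 2.58 in HFKO. No control chow library came near a CDAHFD library, but the control chow values rest on at most 6 fragments, against 17 to 44. Summed over the libraries of a group, NDWT held 11 fragments and HFWT 142, a ratio per assigned fragment of 13.0 (exact 95% interval 7.04 to 26.6). NDKO held 13 fragments and HFKO 142, a ratio of 11.4 (6.43 to 21.8). These intervals cover counting error only. The limma log2FC was 3.62 in WT (FDR = 4.25e-07) and 3.11 in null mice (FDR = 3.30e-06), and both depend on the pseudocount at such levels: with a pseudocount of 1 they were 1.73 and 1.65. Slc51b passed the filter on low values only through its CDAHFD libraries, so a difference between the diets was built into its being tested. Slc51a (OSTα), the partner subunit, was listed at 0 FPKM in 17 of 20 libraries and had 1 fragment in each of NDWT4, HFWT1 and HFKO3. It was therefore not tested, and at this depth no difference was detectable.

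Markers of bile duct cells, which carry Slc10a2 and Slc51b in normal liver, moved in the same direction as these genes. The summed FPKM of 12 cholangiocyte markers was 27.4 to 32.9 (NDWT), 24.2 to 29.5 (NDKO), 317 to 525 (HFWT) and 207 to 392 (HFKO). Of the 9 markers that could be tested, 8 rose in WT and 9 in null mice, where 44.1% and 41.9% of all genes were called higher, among them Epcam (log2FC 4.54 and 4.27) and Krt19 (3.88 and 3.09). Cftr and Sctr were among the markers at 0 in at least 1 library of NDWT and of NDKO. Of the markers of stellate cells 12 of 12 rose in both genotypes, as did 7 and 8 of 11 macrophage markers, against the same 44.1% and 41.9% of all genes. The counts are no independent support, since 4 of the tested cholangiocyte markers (Krt19 among them), 3 of the macrophage markers and 1 of the stellate cell markers passed the filter on low values only with the help of their CDAHFD libraries. The part of these markers in the change of Slc10a2 and Slc51b was not tested. Of 20 hepatocyte markers 0 rose and 6 fell in WT (median log2FC -0.39), and 1 rose and 6 fell in null mice (-0.40). Among all genes 4.62% and 4% were called lower. With median of ratios scaling 17 fell in WT and 14 in null mice, against 2242 and 1980 of all 14524 genes. With quantile normalization 2 rose and 1 fell in WT and 2 rose and 2 fell in null mice. The part of hepatocyte markers in the changes of the uptake carriers was not tested.

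Slco2a1, the carrier that takes up prostaglandins and that is expressed in endothelium, differed between the genotypes on CDAHFD. It had 13.0, 14.6, 13.0, 16.6 and 12.5 FPKM in NDWT and 15.5, 16.1, 14.6, 15.7 and 15.4 in NDKO. It had 9.36, 12.5, 9.002, 8.999 and 7.78 FPKM in HFWT and 19.0, 15.2, 14.1, 26.5 and 13.6 in HFKO. All 5 HFKO libraries were above all HFWT libraries, HFWT overlapped NDWT in 1 library, and HFKO overlapped NDKO. Slco2a1 was the only member called between libraries labelled null and WT on CDAHFD, at 0.86 (0.55 to 1.17, FDR = 0.00628), 1.81-fold higher, where 0.496% of all genes were called, 0.165% as higher. It was also the only member whose groups did not overlap there, against 4.98% of all genes. Without HFKO4, its highest library, the log2FC was 0.70, and in a fit of the CDAHFD groups alone it no longer passed (FDR = 0.0706).

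On diet, Slco2a1 had a log2FC of -0.55 ± 0.15 (SE, FDR = 0.00260) in WT, under the fold threshold, which it passed without HFWT2 (-0.65), without NDWT5 (-0.59), with median of ratios scaling (-1.11) and with quantile normalization (-1.01), while its sign turned with scaling to hepatocyte markers (0.02). In null mice it was 0.15 (-0.16 to 0.46, FDR = 0.382), and the sign turned with median of ratios scaling (-0.38), with quantile normalization (-0.23) and, barely, without HFKO4 (-0.01). With scaling to hepatocyte markers it passed as higher (0.61). The summed FPKM of 12 endothelial markers was 107 to 121 (NDWT), 88.8 to 118 (NDKO), 105 to 174 (HFWT) and 123 to 193 (HFKO). HFWT and HFKO overlapped in it, and its part in the difference of Slco2a1 was not tested.

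Between libraries labelled null and WT on control chow, 2 of the 9 members were called, against 4.77% of all tested genes (1.74% as higher and 3.03% as lower). Slco1a4 was 2.65-fold higher (log2FC 1.40, 0.74 to 2.06, FDR = 0.00656) and Slc10a2 was lower (-1.04, -1.50 to -0.59, FDR = 0.00393), at 0.485 of the WT level. Each pair of groups overlapped in 1 library of the null group, and both calls held under every alternative tried. The members without overlap were instead Slco1b2 (-0.40 ± 0.12 (SE), FDR = 0.0414, under the fold threshold) and Slco1a1, 2 of 9 against 9.03% of all genes. The remaining members had intervals that included 0: Slc10a1 -0.49 to 0.01, Slc22a7 -0.60 to 0.29, Slco2b1 -0.25 to 0.18, Slco2a1 -0.15 to 0.47 and Slc51b -0.39 to 1.43. On CDAHFD the intervals were -0.45 to 0.45 for Slc10a2, -0.49 to 0.83 for Slco1a4, -0.46 to 0.42 for Slc22a7, -0.93 to 0.32 for Slco1a1, -0.18 to 0.25 for Slco2b1 and -0.91 to 0.92 for Slc51b. Those of Slc10a1 (0.06 to 0.56, FDR = 0.192) and Slco1b2 (-0.67 to -0.15, FDR = 0.108) left out 0 without passing, although Slco1b2 passed as lower with scaling to hepatocyte markers (-0.64, FDR = 0.00870). These comparisons share their groups with the diet comparisons: NDWT enters both the diet effect in WT and the genotype effect on control chow.

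The test of the difference between the genotypes in the diet effect called none of the 9 members, where 0.647% of all genes were called. At an unadjusted limma p under 0.05 it counted 4: Slc10a1 (0.54), Slc10a2 (1.04), Slco2a1 (0.70, FDR = 0.115) and Slco1a4 (-1.23). The share of all genes at this looser cutoff is not given here, so nothing is concluded from that count. An effect that passed in 1 genotype, such as that of Slco1a4 in WT, is therefore not shown to differ from that in the other.

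**Figure D4:**
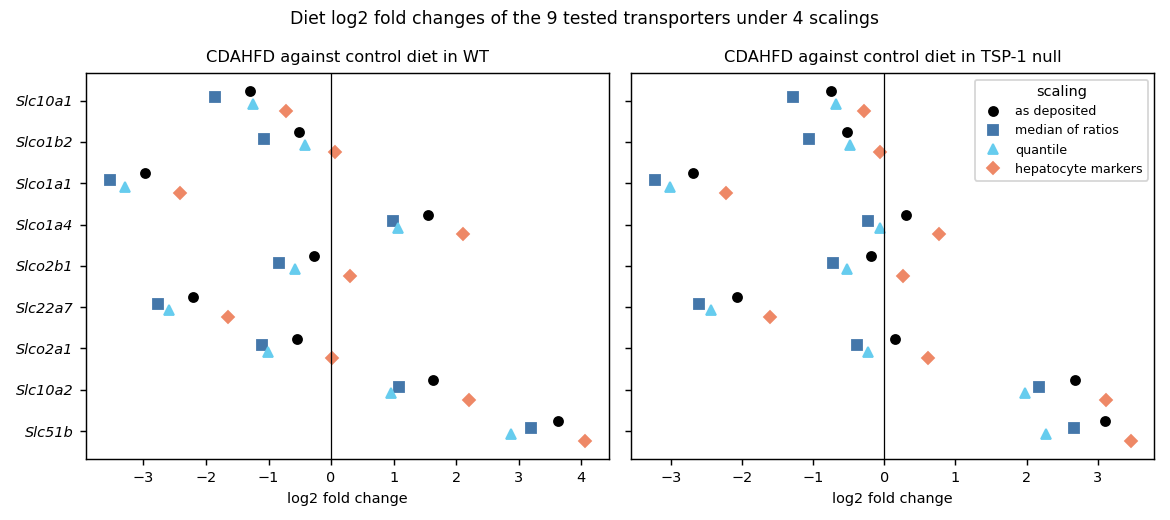
Diet log2 fold change (x axis) of the 9 tested carriers (y axis) in WT and null mice under 4 scalings of the libraries. Slco1a1, Slc22a7, Slc10a2 and Slc51b keep their side of 0 under all 4 in both panels, while Slco1b2 and Slco2b1 range in WT from -1.07 and -0.83 with median of ratios scaling to 0.06 and 0.30 with scaling to hepatocyte markers.

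Transcripts whose pattern was nearest to a member were found by the root mean square difference of the centred log2 values over the 20 libraries. Nearest to Slc10a1 were Pbld2 (0.13), Gm26588 (0.20) and Pank1 (0.21), where the spread of Slc10a1 itself was 0.56. Nearest to Slco1a1 were Slc15a5 (0.41), Cyp7b1 (0.43) and Serpina3k (0.46), against a spread of 1.51. Serpina3k (0.28), Ces4a (0.29) and Cyp2d9 (0.33) were nearest to Slc22a7, whose spread was 1.12. Slc10a2 was followed most closely by Mmp15 (0.30), Akr1b8 (0.35) and Slc13a3 (0.35) with a spread of 1.19, and Slco1b2 by Mgst1 (0.18), Txlng (0.18) and Acadsb (0.19) with a spread of 0.38. For Slco2a1 they were Hgfac (0.27), Sfxn1 (0.28) and Kdr (0.28), against 0.39, and for Slco2b1 Ppp6r2, Mfn2 and Atrnl1 (0.13 to 0.14, against 0.19). The nearest to Slco1a4 (Gm11353, RP23-387F1.3 and Ahr, 0.44 to 0.47 against 0.84) and to Slc51b (Ssc5d, Dact3 and Dyrk3, 0.63 to 0.64 against 1.82) were less close in absolute terms. The measure is a description over libraries that share diet and genotype.

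Because Slco1a1 and Slco1a4 are known for a sex difference in mouse liver, lists of sex-biased liver genes were set beside them, all samples being male. Of 14 tested genes known to be higher in male liver, 0 rose and 11 fell in WT, with a median log2FC of -2.05, and 0 rose and 12 fell in null mice, with a median of -2.51. Of these 14, 2 passed the filter on low values only with the help of their control chow libraries, so a diet difference was built into their being tested. Elovl3, a fatty acid elongase, went from 198 ± 52.5 to 13.4 ± 8.69 FPKM (SD, n = 5) in WT, and Cyp2d9 from 894 ± 67.1 to 229 ± 69.0. Of 8 tested genes known to be higher in female liver, 5 rose and 2 fell in WT and 5 rose and 3 fell in null mice, where 44.1% and 41.9% of all genes were called higher and 4.62% and 4% lower. Of these 8, 5 passed the filter on low values only with the help of their CDAHFD libraries, Cyp2b9 and Sult1e1 among them, so the count of higher genes supports nothing about the list. The filter was passed by 1 of the 8 only with the help of its control chow libraries. Cyp2b9 went from 0.185 ± 0.148 to 8.17 ± 6.54 FPKM in WT, and Sult1e1, which sulfates estrogen, from 0.405 ± 0.322 to 11.2 ± 4.79. Acot3 and Cyp17a1 were the list members that fell in both. On control chow, libraries labelled null had 4 of the 14 male-biased genes lower (Cyp4a12a, Nudt7, Cyp2u1 and C8a, of which the first 2 passed with median of ratios scaling) and 2 of the 8 female-biased genes higher (Cux2 and Cyp17a1). In that comparison 3.03% of all genes were called lower and 1.74% higher. Cyp17a1 no longer passed with quantile normalization (1.44, FDR = 0.0561) or with scaling to hepatocyte markers (1.35, FDR = 0.0507). The direction of the male-biased genes in both diet comparisons held under all 4 scalings, with 10 to 14 called as lower and 0 as higher. Of all 14524 genes, median of ratios scaling called 2242 lower in WT and 1980 in null mice.

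Bile acid export from the hepatocyte runs through ABC pumps, of which 11 were listed and tested. In WT 2 rose and 1 fell, and in null mice 4 rose and 0 fell, with medians of 0.16 and 0.34 against 0.53 and 0.50 for all genes. Among all genes 44.1% and 41.9% were called higher and 4.62% and 4% lower. Abcc4 (MRP4), a basolateral exporter of bile acids, went from 0.608 ± 0.113 to 2.39 ± 0.432 FPKM (SD, n = 5) in WT (log2FC 1.81) and from 0.402 ± 0.0778 to 2.20 ± 0.437 in null mice (2.19). Abcb1a, a multidrug exporter, went from 0.356 ± 0.117 to 4.76 ± 0.738 FPKM in WT (3.44) and from 0.239 ± 0.0685 to 3.56 ± 0.460 in null mice (3.45). Both genes are among the calls, but both passed the filter on low values only with the help of their CDAHFD libraries (0 control chow libraries of Abcb1a and 4 of Abcc4 exceeded 0.5 FPKM), so a diet difference was built into their being tested. The balance of the list depended on the scaling, as that of all genes did. With median of ratios scaling 2 rose and 3 fell in WT and 2 rose and 5 fell in null mice. Of all 14524 genes that scaling called 3299 higher and 2242 lower in WT, and 3225 and 1980 in null mice. With scaling to hepatocyte markers 7 rose in WT, 6 rose in null mice and 0 fell. There 11290 (WT) and 10583 (null mice) of all genes were called higher, so the rise was not particular to the list. Abcb11 (BSEP), the canalicular bile salt pump, was chosen after its values were seen. It had 74.8 ± 7.43 and 94.4 ± 25.1 FPKM in NDWT and HFWT (0.31, FDR = 0.0982) and 67.3 ± 7.13 and 95.9 ± 25.9 in NDKO and HFKO (0.47, FDR = 0.0144). Neither change of Abcb11 passed in the main fit, and its values under the other scalings are not given here. On control chow Abcg2, an exporter of anions and sterol conjugates, was lower in libraries labelled null (-0.68, FDR = 8.05e-05), though short of the fold threshold with quantile normalization (-0.56).

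**Figure D5:**
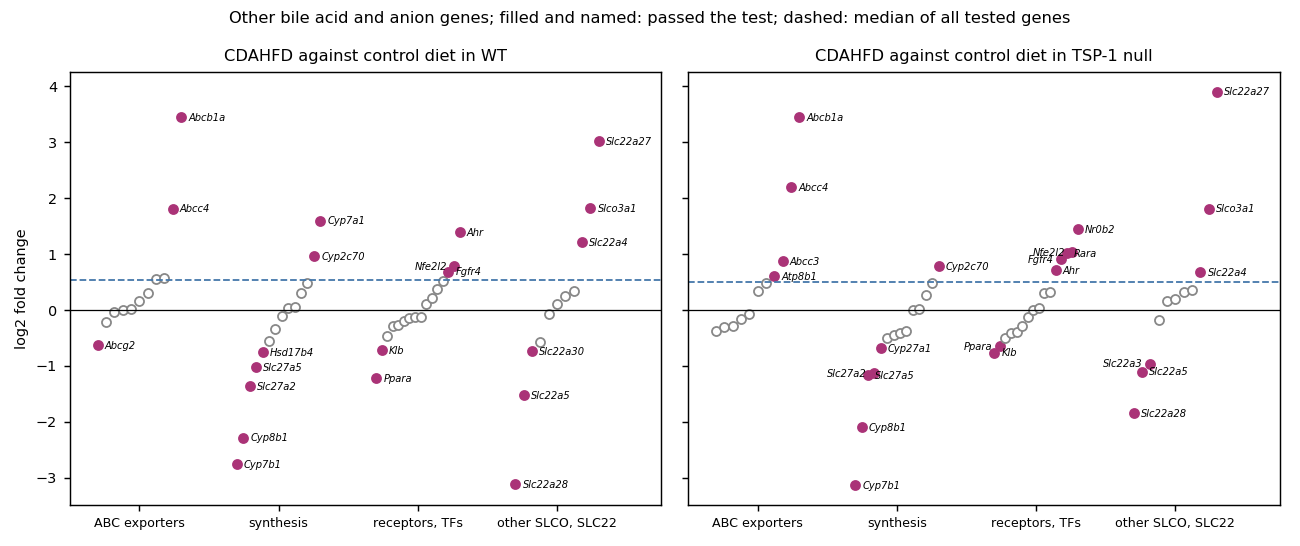
Diet log2 fold change (y axis) of the tested genes in 4 lists (x axis): ABC exporters, bile acid synthesis, receptors and transcription factors, and other SLCO and SLC22 carriers. Filled, named points passed the test, and the dashed line is the median of all tested genes. In WT the lowest points are Slc22a28, Cyp7b1 and Cyp8b1, and the highest are Abcb1a and Slc22a27.

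Of 14 tested genes of bile acid synthesis and conjugation, 2 rose and 5 fell in WT and 1 rose and 5 fell in null mice, with medians of -0.22 and -0.43. The shares of all genes were 44.1% and 41.9% called higher and 4.62% and 4% lower. Cyp7b1, the oxysterol hydroxylase of the acidic pathway, fell from 121 ± 24.2 to 17.6 ± 2.84 FPKM (SD, n = 5) in WT (-2.76, FDR = 4.08e-10) and by 3.13 in null mice (FDR = 1.00e-10). Cyp8b1, the enzyme that makes cholic acid, fell from 458 ± 98.2 to 97.0 ± 31.7 in WT (-2.28, FDR = 6.26e-09) and by 2.09 in null mice (FDR = 2.33e-08). Slc27a2 and Slc27a5, which activate fatty acids and bile acids to their CoA thioesters, fell in both genotypes (-1.36 and -1.02 in WT, -1.13 and -1.16 in null mice), while Cyp2c70, which makes muricholic acids, rose (0.96 and 0.78), though not past the test with median of ratios scaling (0.40 and 0.25). With median of ratios scaling 0 genes of the list rose and 8 fell in each genotype. Of all 14524 genes that scaling called 3299 higher and 2242 lower in WT, and 3225 and 1980 in null mice. With scaling to hepatocyte markers 6 rose and 3 fell in WT and 3 rose and 4 fell in null mice. Slc27a5 no longer passed in WT under it (-0.44). This scaling called 11290 (WT) and 10583 (null mice) of all genes higher. Cyp7a1, the rate-limiting enzyme of the classical pathway, varied widely within groups. It had 10.1 ± 8.05 FPKM in NDWT against 39.0 ± 19.3 in NDKO (2.09, FDR = 0.00578) and 26.6 ± 10.3 in HFWT (1.60 against NDWT, FDR = 0.00423), with 29.0 ± 17.0 in HFKO. Cyp8b1 was higher in libraries labelled null on both diets (0.67, FDR = 0.0341, and 0.85, FDR = 0.0426), but on control chow it did not pass with quantile normalization (0.61, FDR = 0.0796) or with scaling to hepatocyte markers (0.54, FDR = 0.0777).

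Of 16 tested receptors and transcription factors that act on these carriers or on bile acid synthesis, 3 rose and 2 fell in WT and 5 rose and 2 fell in null mice. Among all genes 44.1% and 41.9% were called higher and 4.62% and 4% lower. This balance turned with the scaling, as the counts over all genes moved too. With median of ratios scaling 1 rose and 9 fell in WT and 0 rose and 7 fell in null mice. Of all 14524 genes that scaling called 3299 higher and 2242 lower in WT, and 3225 and 1980 in null mice. With scaling to hepatocyte markers 6 rose and 1 fell in WT and 7 rose and 0 fell in null mice. There 11290 of all genes were higher and 238 lower in WT, and 10583 and 271 in null mice. Ahr, the receptor of planar aromatic compounds, rose (1.39, FDR = 1.86e-07, and 0.71, FDR = 0.000494), as did Nfe2l2 (NRF2), the factor of the oxidative stress response (0.79 and 1.04), and Fgfr4, the hepatocyte receptor of FGF15 (0.69 and 0.91). Ppara, the fatty acid receptor, fell (-1.22 and -0.65), as did Klb, the coreceptor of FGF15 and FGF21 (-0.72 and -0.77). Of these only the changes of Ahr and Ppara in WT passed under all 4 scalings. On control chow, libraries labelled null had higher Ahr (0.71, FDR = 0.00602) and lower Nfe2l2 (-0.69, FDR = 8.05e-05). Nr1h4 (FXR), the bile acid receptor, was added after its values were seen. Its log2FC was -0.27 in WT and -0.13 in null mice, neither of which passed in the main fit. Its values under the other scalings are not given here.

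The list of other OATP and SLC22 carriers held 20 genes, of which 11 could be tested. In each genotype 3 rose and 3 fell, but with median of ratios scaling 3 rose and 5 fell in WT and 2 rose and 4 fell in null mice, and with scaling to hepatocyte markers 6 rose and 2 fell in WT and 7 rose and 2 fell in null mice. In the main fit 44.1% and 41.9% of all genes were called higher and 4.62% and 4% lower. Median of ratios scaling called 2242 (WT) and 1980 (null mice) of 14524 lower, and scaling to hepatocyte markers called 11290 and 10583 higher. Slco3a1, a broadly expressed OATP, went from 0.648 ± 0.0774 to 2.62 ± 0.795 FPKM (SD, n = 5) in WT (1.82, FDR = 1.08e-08), with a log2FC of 1.81 in null mice. Slc22a27 had a log2FC of 3.02 and 3.90, but 0 of its control chow libraries exceeded 0.5 FPKM, so that its diet difference, too, was built into its being tested. Slc22a4, a carrier of ergothioneine, rose by 1.21 and 0.67, although Slc22a4 did not pass with quantile normalization (0.30 and, with its sign turned, -0.18). Slc22a5 (OCTN2), the carnitine carrier, fell from 42.3 ± 8.66 to 14.6 ± 2.41 FPKM in WT (-1.52, FDR = 8.22e-08) and by 1.11 in null mice, and Slc22a28, which passed the filter only with the help of its control chow libraries, had a log2FC of -3.11 and -1.85. Slc22a28 (-1.32, FDR = 0.0134) and Slc22a30 (-0.71, FDR = 0.00769) were lower in libraries labelled null on control chow.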

How the data were processed

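RNA of 20 livers, 5 per group by the sample labels, was sequenced on an Illumina instrument and processed by the authors with QuickRNASeq (STAR 2.5.2 and featureCounts of Subread 1.5.1, per the submitters' processing notes and the study's methods). The deposited values are FPKM by the authors, without further scaling between libraries. The processing notes name the build GRCh38, but gene identifiers and coordinates are those of mouse GRCm38. Fragments were recovered from FPKM, gene length and library total: 99.99% (rounded, lowest library) to 100% of the values checked came out whole (tolerance 0.02 fragment plus rounding), and 3 fragments on 1 kb are 0.129 to 0.192 FPKM. No pair of libraries within a group was a copy (lowest chi-square per degree of freedom 12.1 in the 40 pairs within groups). Independent animals are taken from the labels.

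Comparisons used limma 3.58.1 (R 4.3.3; lmFit and eBayes with trend, 20 libraries in 1 fit) on log2(FPKM + 0.1), so fold changes of low genes are understated, for the 14524 genes whose FPKM exceeded 0.5 in 5 or more libraries. Tests are two-sided with Benjamini-Hochberg adjustment over all tested genes. The script was tested on simulated data. The members, lists and tests were chosen with earlier results of these data known. Named are the members, Thbs1, at most 6 called genes of a list per comparison (lowest FDR), and the 3 genes nearest to each member. The values of 1 listed marker are not reported here. Alternatives were other pseudocounts, filters, scalings, eBayes settings and sample sets, and a replicate block. Tables and figures used Python 3.11.15, pandas 2.3.3, scipy 1.17.1 and matplotlib 3.10.9.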

Additional observations from a re-analysis of the deposited data

Results flagged for a closer look

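Slc22a7 was at 55.3 FPKM in NDWT2, apart from the other NDWT libraries, of which the next highest had 37.0. Slc51a was at 0 in all but 1 library of 3 groups: NDWT4 (0.036 FPKM), HFWT1 (0.035) and HFKO3 (0.035) each held a single fragment. For Slc22a7 the gap to the nearest library was 0.88 of the group's range. The limit was 0.71, which chance passes in about 1 of 20 groups, and all 10 members were examined in all 4 groups. For Slc51a that rate does not apply, because a group with a single fragment passes the limit by construction.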

How the results depend on the processing

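The main limit is scaling, since CDAHFD raised the centre of all genes. Members called between null and WT mice on CDAHFD were 1, but 0 in a fit of those groups alone and 2 with scaling to hepatocyte markers (Slco2a1 and Slco1b2). Replicate numbers did not pair the libraries (30 same-number pairs, correlations of deviations -0.13 to 0.08, 6 libraries nearest to their own number), and a replicate block raised the members called for the interaction from 0 to 1 (Slc10a2, FDR = 0.0475). Leaving out each library gave 0 to 1 there (1 without HFKO5), gave 6 to 7 for the diet in WT and 5 to 6 in null mice, and left the counts of members called at 1 (genotype on CDAHFD) and 2 (genotype on control chow). Depth limits Slc51a and Slc51b.

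With scaling to hepatocyte markers, signs turned for the diet effect in WT of Slco1b2 (0.062), Slco2a1 (0.017) and Slco2b1 (0.30), in null mice of Slco2b1 (0.27), for the genotype effect on CDAHFD of Slc10a2 (-0.23), Slc51b (-0.22), Slco1a4 (-0.064) and Slco2b1 (-0.20), and for the interaction of Slco2b1 (-0.036). With median of ratios scaling and quantile normalization, signs turned in null mice for the diet effect of Slco1a4 (-0.22 and -0.061) and Slco2a1 (-0.38 and -0.23), for the genotype effect of Slc22a7 on CDAHFD (0.081 and 0.082) and of Slco2b1 on control chow (0.037 and 0.035), and with the former for the interaction of Slco1b2 (0.014). A pseudocount of 1 turned that of Slc10a2 on CDAHFD (-6.41e-05). The cause was not tested.

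Leaving out 1 library turned only values near 0: the diet effect of Slco2a1 in null mice (-0.0080 to 0.23), the genotype effect on CDAHFD of Slc10a2 (-0.083 to 0.095), Slc22a7 (-0.17 to 0.13), Slc51b (-0.12 to 0.19), Slco1a1 (-0.52 to 0.00107), Slco1a4 (-0.024 to 0.31) and Slco2b1 (-0.021 to 0.12), that of Slco2b1 on control chow (-0.10 to 0.014) and the interaction of Slc22a7 (-0.010 to 0.28) and Slco1b2 (-0.095 to 0.082).

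Counts over all genes moved by more than 1.5 times from 7083 (WT diet) to 11528, from 6669 (TSP-1 null diet) to 10854 and from 72 (genotype on CDAHFD) to 1094 with scaling to hepatocyte markers. The last was 127 without a filter, 40 in a fit of its groups alone and 38 without HFKO4. The 693 of the genotype on control chow were 393 with a pseudocount of 1, and the 94 of the interaction were 54 without a filter and 36 to 184 over the libraries left out (without NDKO4 and NDKO2). Median of ratios scaling gave 348 higher and 329 lower on control chow, against 253 and 440, and 38 and 27 on CDAHFD, against 24 and 48.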
